A study of Bos taurus with 4 samples.

Results

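The axoneme, tubulin and microtubule motor genes were compared between sperm RNA of high-fertile and low-fertile Murrah buffalo bulls. They were taken by gene symbol from the array's own annotation, as the sample probes for the axonemal dyneins (DNAH, DNAI, DNAL), the tektins (TEKT), the radial spoke heads (RSPH), the sperm-associated antigens (SPAG), the cytoplasmic dyneins (DYNC, DYNL), intraflagellar transport (IFT), the Bardet-Biedl syndrome proteins (BBS), the tubulins (TUBA, TUBB, TUBG, TUBGCP) and the kinesins (KIF). This gave 117 genes of 32429 gene names on the array, read by 280 of 51282 probes.

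Each of the 4 arrays held cRNA labelled with 1 dye, made from sperm RNA pooled from 2 breeding bulls. There were 2 high-fertile pools and 2 low-fertile pools, all from males for which the labels name no treatment, genetic modification or age. Before RNA isolation the study selected spermatozoa on a Percoll gradient, which leaves most other semen cells behind, and it labelled the RNA from an oligo dT primer. The RNA was from buffalo and the 60-base probes were designed on cattle sequence. With 2 pools a group, p-values measured the spread between pools and not between bulls.

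A sperm tail beats because axonemal dyneins, motors fixed in rows on paired microtubules of alpha- and beta-tubulin, pull neighbouring pairs past each other. Outer-arm dyneins set the power of the beat, inner-arm dyneins shape it, and radial spokes and a central apparatus coordinate them, while tektins run along the microtubule pairs as filaments. Intraflagellar transport, driven outward by kinesin-2 and back by cytoplasmic dynein 2, builds the tail during spermiogenesis. Mature sperm make almost no new RNA, so their transcripts are largely left over from spermatogenesis.

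Signals below are log2 processed signals over the 75th percentile of the array, and differences are low-fertile minus high-fertile on that scale. The fit was limma over the 21033 probes that, in the high-fertile or the low-fertile pair, both arrays put well above background, with Benjamini-Hochberg adjustment over all of them, and a gene was called at an adjusted p under 0.05. A gene was read from its brightest tested probe. Pearson's r was 0.981 between the high-fertile arrays and 0.980 between the low-fertile arrays, and 0.924 to 0.935 between arrays of different groups. The array of low-fertile pool 2 stood apart, with 13033 probes well above background against 23228 to 25642 on the others. The pools of a group shared a row of the slide, so array position and fertility cannot be told apart.

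Of the 117 genes, 67 had a tested probe and 50 had none. In the low-fertile pools 10 of the 67 genes (14.9%) were called lower and 10 (14.9%) higher, where 16.6% of all 16685 tested genes were called lower and 9.53% higher. The other 47 did not pass. The median difference was 0.08 over the 67 genes and 0.01 over all genes. With spike-in scaling 19 of the 67 genes were called lower and 3 higher, beside 31.4% and 2.92% of all genes. Both pools of a group lay on the same side of both pools of the other for 48 of the 67 genes, against 69.4% of all genes. Over probes, 19 of the 105 tested probes were called lower and 11 higher, beside 17.6% and 9.22% of all tested probes. With low-fertile pool 2 left out, 7 of the 67 genes were called lower and 5 higher, beside 13.5% and 4.40% of all genes. A fit with a pool left out keeps 1 array in that group, so its spread comes from the other group alone. Leaving out either high-fertile pool lowered both counts further. In such bulk samples fewer cells of a type and less RNA per cell cannot be told apart.

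The calls were also counted by detection class. Among the 42 genes well above background on all 4 arrays, 3 were called lower and 9 higher, beside 9.32% and 13.2% of all such genes. Among the 24 well above background on both high-fertile arrays but not on both low-fertile arrays, 7 were called lower and none higher, beside 30.3% and 1.36%. A gene could enter this class through its high-fertile signal alone, and both shares of the class lay near those of all such genes. Apart from DNAH7, KIF23 and KIF3A, the member genes of the class fell short of well above background only on the array of low-fertile pool 2. KIF13B was the 1 gene detected on the low-fertile pair alone.

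**Figure D1:**
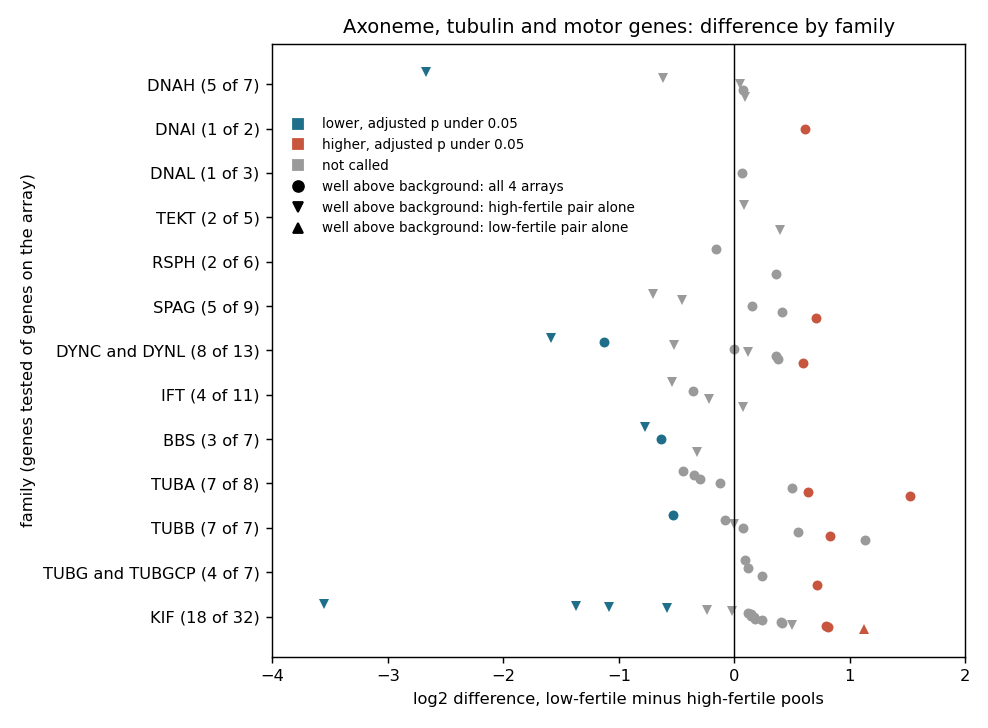
Log2 difference of each tested gene by family, with the genes tested and the genes on the array in parentheses. Colour gives the call, and the marker gives the arrays on which the probe was well above background. The 10 lower and 10 higher genes are spread over several families, with the dynein heavy chain DNAH7 at -2.67 and the kinesin KIF3A at -3.55 farthest to the left.

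DNAH7, an inner-arm dynein heavy chain, gave the largest fall among the axonemal genes. Its called probe is shown, near base 10844 of the transcript, on the minus strand at chr2:88371911-88371970 of Btau_3.1, the build the array files use.
DNAH7: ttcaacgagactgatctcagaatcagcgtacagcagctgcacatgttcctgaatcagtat
The DNAH7 signal was 0.14 and 0.63 for high-fertile against -2.49 and -2.08 for low-fertile pools. The groups were far apart, and neither low-fertile array was well above background. The high-fertile signal was thus at least 6.01-fold higher on this scale (limma difference -2.67, SE 0.24, adjusted p = 0.0027). Each such fold, here and below, sets the dim signal at the higher of its own value and the array's lowest signal well above background. It makes no allowance for the SE and holds for this background subtraction only. With normexp background correction the DNAH7 difference was -0.70, a smaller fold. The second DNAH7 probe, near base 12049, was not tested, with -0.97 and -0.86 against -1.21 and -1.35.

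The other 4 tested heavy chains were not called. DNAH6, a further inner-arm chain, had 0.82 and 0.72 for high-fertile against 0.62 and -0.31 for low-fertile pools (difference -0.61, SE 0.31, limma adjusted p = 0.20). Its low value came from low-fertile pool 2, and its other tested probe differed by 0.07. DNAH1 and DNAH3, of the inner arm, and DNAH9, of the outer arm, differed by 0.05 to 0.09. DNAH2 and DNAH11 had no tested probe.

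DNAI2, an intermediate chain that ties outer-arm dynein together, rose. It had 4 probes, all well above background on all 4 arrays, and the brightest is shown, at chr19:58875462-58875521 on the minus strand.
DNAI2: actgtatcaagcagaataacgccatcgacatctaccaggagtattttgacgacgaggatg
That probe gave 1.67 and 1.64 for high-fertile against 2.20 and 2.34 for low-fertile pools. The low-fertile pools were 1.53-fold higher (difference 0.62, SE 0.15, limma adjusted p = 0.032). The other 3 probes, at bases 158, 1814 and 1895, differed by 0.53, 1.00 and 0.58, so all 4 pointed the same way and 2 of them passed. The call did not hold with low-fertile pool 2 left out (difference 0.54, limma adjusted p = 0.096) or with either high-fertile pool left out (adjusted p = 0.12 and 0.13). It was also lost with spike-in scaling (difference 0.24) and with the pool number as a block (limma adjusted p = 0.053).

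The second intermediate chain, DNAI1, had no tested probe. Of the light chains, DNAL4 had 0.41 and 0.12 for high-fertile against 0.12 and 0.53 for low-fertile pools, with overlapping groups (difference 0.06, SE 0.20, limma adjusted p = 0.84). DNAL1, an outer-arm light chain, and DNALI1, an inner-arm light intermediate chain, had no tested probe.

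No tektin or radial spoke gene passed. TEKT4 had -0.65 and -1.02 for high-fertile against -0.39 and -0.50 for low-fertile pools (difference 0.39, SE 0.18, limma adjusted p = 0.16). TEKT3 differed by 0.08, and TEKT1, TEKT2 and TEKT5 had no tested probe. RSPH6A, a spoke head protein of sperm tails, had 0.12 and 0.24 against 0.47 and 0.61 (difference 0.36, SE 0.15, limma adjusted p = 0.13), and with spike-in scaling its sign turned (-0.01). RSPH10B differed by -0.16, and RSPH1, RSPH3, RSPH4A and RSPH9 had no tested probe. The central apparatus genes SPAG6, SPAG16 and SPAG17 likewise had none.

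The remaining SPAG symbols cover unrelated proteins. SPAG4, a nuclear envelope protein of the sperm head-tail junction, differed by 0.41 (limma adjusted p = 0.089), and SPAG5, a spindle protein, by 0.15. SPAG8 differed by -0.71 (adjusted p = 0.14) and SPAG11B, a defensin-like gene of the epididymis, by -0.45 (adjusted p = 0.11). SPAG7 was called, but on a probe that ends in a GT repeat. The stretch of bases 31 to 60 of that probe is shown with its run of GT units in capitals, at chr19:26812686-26812745 on the plus strand for the whole probe.
SPAG7: gatatgtatgtgggGTGTGTGTGTGTGTGT
This probe gave 6.85 and 6.76 for high-fertile against 7.45 and 7.57 for low-fertile pools (difference 0.71, SE 0.15, limma adjusted p = 0.021). The 2 other SPAG7 probes, which start at bases 925 and 926, were well above background only on the array of high-fertile pool 2, with -0.46 and -0.52 there and -1.76 to -1.17 on the other arrays. In the probe strand as printed, GTGTGTGTGTGTGTGT stood in 9 of the 51282 probes (0.0175%), and all 9 were well above background on all 4 arrays, with mean signals of 7.16 to 11.04. All 9 were higher in the low-fertile pools, by 0.12 to 0.81 with a median of 0.61, and 6 were called. The 9 probes share a sequence and are not independent. Without probes that hold this run or the IFT80 repeat described next, 10 genes were called lower and 9 higher of 66. Leaving out high-fertile pool 1, high-fertile pool 2 or low-fertile pool 2 lost the SPAG7 call, at differences of 0.76, 0.66 and 0.65.

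IFT80, a subunit of the outward transport complex, showed a like split among its own 8 probes. The 4 probes that start at bases 1 to 13 of its transcript were well above background on all 4 arrays. The 4 that start at bases 604, 1983, 3226 and 3838 were not well above background on any array. Stretches of 30 bases of the first pair are shown, with a shared run in capitals. The run resembles the core of a ruminant short interspersed repeat, though no repeat annotation was looked up here. The probes lie at chr1:108890134-108890192 and chr1:108890141-108890200 on the plus strand.
IFT80 base 1: tgaaaagtgaaaGTGAAGTCGCTCAGTCGa
IFT80 base 8: ggaaaagtgaaaGTGAAGTCGCTCAGTCGt
The capitals GTGAAGTCGCTCAGTCG were found, in the probe strand, in 4 of the 51282 probes (0.0078%), 3 of them IFT80 probes, and all 4 were well above background on all 4 arrays. The remaining IFT80 probe of the first bases lacked the exact run and differed by -1.06 without passing (limma adjusted p = 0.16). The brightest IFT80 probe gave 9.36 and 9.08 for high-fertile against 8.80 and 8.93 for low-fertile pools (difference -0.36, SE 0.17, limma adjusted p = 0.17). The downstream probes ranged from -3.56 to -2.09. The bright signal of IFT80 thus rested on its first bases alone, and it was not called.

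**Figure D2:**
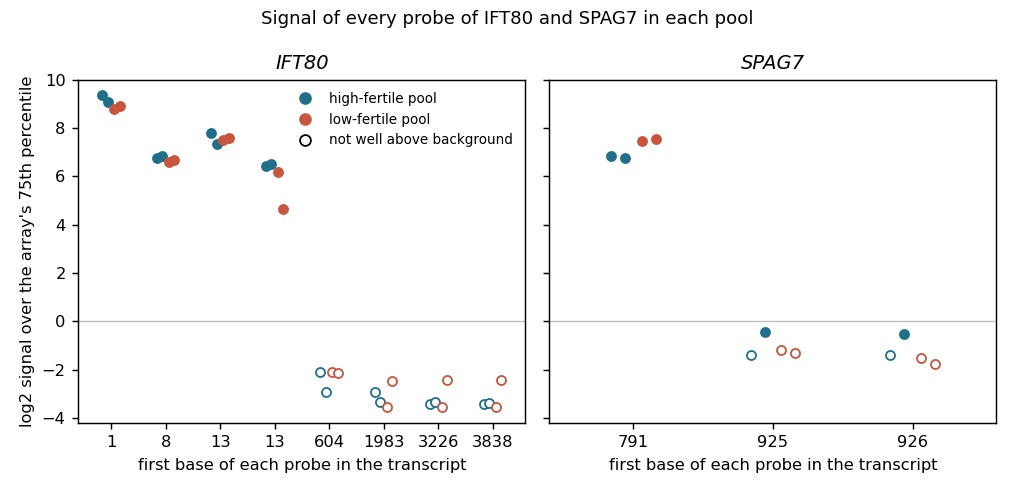
Log2 signal over the 75th percentile of the array for every probe of IFT80 and SPAG7, ordered by the first base in the transcript, with blue for high-fertile and red for low-fertile pools. Open points were not well above background. The 4 IFT80 probes at bases 1 to 13 and the SPAG7 probe with the GT run lie above 4, and the other probes of the same genes lie below 0.

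Among the other transport genes, IFT52 had 0.48 and 0.44 for high-fertile against -0.22 and 0.07 for low-fertile pools (difference -0.54, SE 0.16, limma adjusted p = 0.063), and it passed with normexp (-0.28, limma adjusted p = 0.019), with spike-in scaling (-0.91, adjusted p = 0.010) and among probes with a mean signal above 0 (adjusted p = 0.037). IFT46 differed by -0.22 and IFT122, of the inward complex, by 0.08. IFT20, IFT27, IFT43, IFT57, IFT74, IFT81 and IFT88 had no tested probe, and neither did DYNC2H1 and DYNC2LI1, the heavy and light intermediate chains of the motor that runs inward. In all, 4 of 11 IFT genes could be tested, and the reported setting called none.

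Of the 3 tested BBS genes, which serve cargo sorting into cilia, 2 fell, beside 16.6% of all tested genes. BBS12 was of the class well above background on both high-fertile arrays but not on both low-fertile arrays, where 30.3% of all genes fell. BBS4, a subunit of the BBSome coat, is shown by its brightest probe, at chr10:19799149-19799208 on the plus strand.
BBS4: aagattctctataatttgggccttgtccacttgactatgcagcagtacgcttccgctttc
BBS4 had 1.24 and 1.39 for high-fertile against 0.54 and 0.83 for low-fertile pools, and was 1.55-fold lower in the latter (difference -0.63, SE 0.17, limma adjusted p = 0.045). Its second tested probe, near base 2114, differed by -0.41 without passing (limma adjusted p = 0.082). BBS12, a chaperonin-like assembly factor, had -0.40 and -0.17 against -1.14 and -0.98 (difference -0.77, SE 0.16, adjusted p = 0.022). The BBS12 signal in low-fertile pool 2 was not well above background, and with normexp background correction the difference was -0.16 and the call was lost (limma adjusted p = 0.10). BBS9 was not called (-0.32), and BBS2, BBS5, BBS7 and BBS10 had no tested probe. Without high-fertile pool 1, high-fertile pool 2 or low-fertile pool 1 neither BBS gene passed, with differences of -0.71, -0.56 and -0.49 for BBS4 and -0.89, -0.66 and -0.69 for BBS12.

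By fitted difference the kinesins held the largest fall, that of KIF3A, though its size is known only as a bound. KIF3A is a motor subunit of kinesin-2, which drives outward transport in cilia and tails. Its called probe starts at base 2488 of the transcript, at chr7:20441313-20441372 on the plus strand, and its first 30 bases are shown.
KIF3A: ctttttcaacttatactgtgcagggaagtt
KIF3A had 0.69 and 0.51 for high-fertile against -3.52 and -2.38 for low-fertile pools, where neither array was well above background. The high-fertile signal was at least 7.74-fold higher on this scale (limma difference -3.55, SE 0.37, adjusted p = 0.0036), and with normexp the difference was -0.93. The fall rested on this probe, since the KIF3A probes at bases 1206 and 2108 were not well above background in either group, at -3.57 to -1.15. KIF3B, its partner, had no tested probe.

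KIF3C, a further kinesin-2 subunit, was read differently by probes only 151 bases apart. The probe at base 4918 had 0.68 and 0.53 for high-fertile against -0.50 and -0.47 for low-fertile pools (difference -1.09, SE 0.15, limma adjusted p = 0.0062), and was not well above background in low-fertile pool 2. The brighter probe at base 5069 had 1.42 and 1.15 against 1.55 and 1.5, and was not called (0.24, adjusted p = 0.31).

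KIF23, a motor of cytokinesis, had -0.21 and -0.18 for high-fertile against -1.41 and -1.72 for low-fertile pools. Neither low-fertile array was well above background, and the high-fertile signal was at least 2.58-fold higher (limma difference -1.37, SE 0.17, adjusted p = 0.0050). KIF26B, an atypical kinesin, differed by -1.09 (adjusted p = 0.028) and KIF15, a spindle motor, by -0.58 (adjusted p = 0.035). Both were tested through their high-fertile signal, and neither was well above background in low-fertile pool 2. The KIF26B call was lost without either high-fertile pool (-1.17 and -1.01) and without low-fertile pool 2 (-0.76), and the KIF15 call without any 1 of the 4 pools (-0.63 to -0.53).

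Among the kinesins 3 rose. KIF13B, a cargo motor of the kinesin-3 class, had -0.98 and -1.39 for high-fertile pools, neither well above background, against -0.24 and 0.12 for low-fertile pools. The low-fertile signal was at least 2.18-fold higher (limma difference 1.13, SE 0.21, adjusted p = 0.016), and the call was lost without high-fertile pool 2 (difference 0.92, adjusted p = 0.075) or without low-fertile pool 2 (0.95, adjusted p = 0.056). KIF22, a chromosome-arm motor, had -0.55 and -0.57 against 0.20 and 0.30 (difference 0.81, SE 0.14, adjusted p = 0.013). KIF1C, also of kinesin-3, had -0.67 and -0.63 against 0.17 and 0.12 (difference 0.79, SE 0.14, adjusted p = 0.013). Both KIF22 and KIF1C lost the call when either high-fertile pool was left out, with differences of 0.77 to 0.82. The other 11 tested kinesins were not called, and 14 of the 32 on the array had no tested probe, among them KIF5B, KIF9, KIF11 and KIF27.

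In cytoplasmic dynein, which carries cargo toward microtubule minus ends, the light intermediate chains moved in opposite directions. DYNC1LI2 had 0.44 and 0.37 for high-fertile against -1.08 and -1.27 for low-fertile pools (difference -1.59, SE 0.15, limma adjusted p = 0.0030), and with normexp background correction the difference was -0.49. The signal in low-fertile pool 2 was not well above background, and the other tested DYNC1LI2 probe, at base 1255, differed by -0.18 without passing (adjusted p = 0.38). DYNC1LI1 had -0.36 and -0.21 against 0.42 and 0.19 (difference 0.59, SE 0.16, adjusted p = 0.047). The DYNC1LI1 call was lost without any 1 of the 4 pools, with differences of 0.48 to 0.71, and with spike-in scaling (0.22), normexp (0.18), the detected percentile (0.63), the deposited table (0.58) or the pool number as a block (0.59).

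DYNLL1, the LC8 light chain shared by dynein and other complexes, had 4 tested probes and 3 were called lower. The brightest, at base 461, had 2.77 and 2.70 for high-fertile against 1.53 and 1.68 for low-fertile pools (difference -1.13, SE 0.15, limma adjusted p = 0.0057). The probe at base 510, which shares 11 bases with it, had 2.01 and 1.97 against 0.75 and 0.72 (difference -1.25, adjusted p = 0.0040). A probe placed on chromosome X, away from the chromosome 17 gene, carried the same symbol and fell by 0.81 on the log2 scale. The probe that maps to the opposite strand on chromosome 17 was not called (-0.32, adjusted p = 0.16). The heavy chain DYNC1H1 (0.36), DYNC1I1 (0.11), DYNLL2 (0.38), DYNLRB1 (0.00) and DYNLRB2 (-0.52) were not called.

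**Figure D3:**
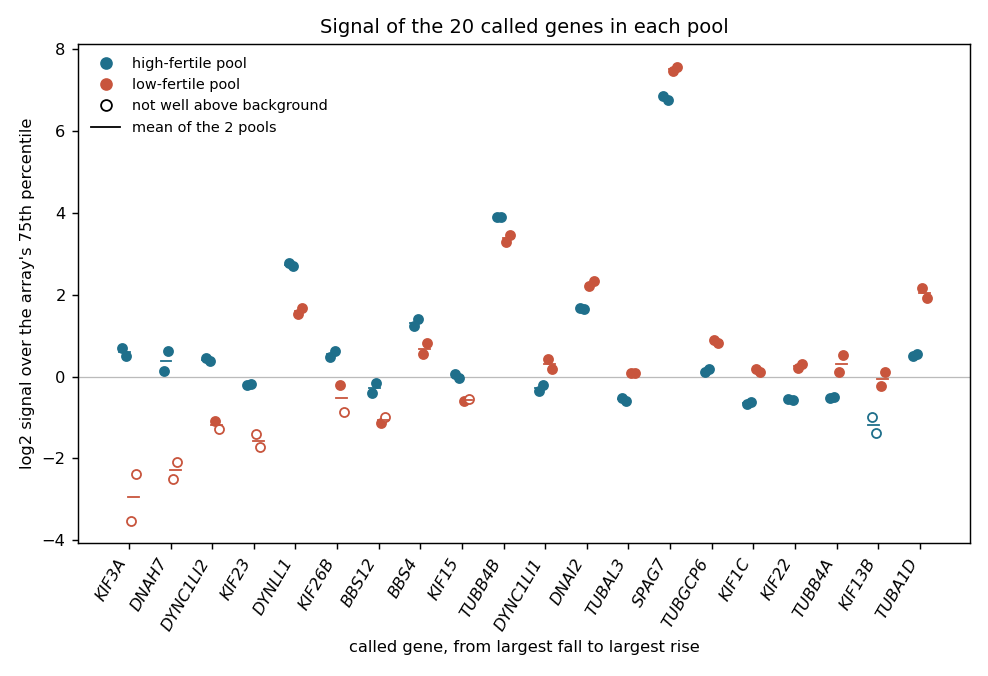
Log2 signal over the 75th percentile of the array for the 20 called genes, with 1 point per pool, blue for high-fertile and red for low-fertile, and bars at the group means. Open points were not well above background. The groups do not overlap for any of the 20 genes, and the low-fertile points of KIF3A, DNAH7 and KIF23 are all open.

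Of the 20 called genes, 6 passed with each of the 4 pools left out in turn, namely KIF3A, DNAH7, DYNC1LI2, KIF23 and DYNLL1 among the falls and TUBA1D among the rises. KIF3A, DNAH7, DYNC1LI2 and KIF23 entered the test through their high-fertile signal alone, so their passing again is no independent support, whereas DYNLL1 and TUBA1D were detected on all 4 arrays. Each of these fits left 1 array in a group, with the spread taken from the other group. All 20 kept their sign under each of these settings. The calls kept were 7 and 6 of 20 when high-fertile pool 1 or 2 was left out, and 13 and 11 for low-fertile pool 1 or 2. With signals scaled to 7 spike-in probes, which moved the median of all genes to -0.36, all 10 falls and 3 of the 10 rises were kept. The kept rises were TUBA1D (1.15), KIF13B (0.76) and KIF22 (0.44). The rises of TUBB4A (0.45), KIF1C (0.42), TUBGCP6 (0.34), SPAG7 (0.34), TUBAL3 (0.27), DNAI2 (0.24) and DYNC1LI1 (0.22) were not called in limma with that scaling. Normexp background correction moved several differences by over 1.5 times while their calls held in limma. They became -0.70 for DNAH7, -0.93 for KIF3A, 0.33 for KIF13B, 0.33 for KIF22, 0.24 for KIF1C, 0.35 for TUBGCP6, 0.19 for TUBAL3 and 0.97 for TUBA1D.

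The tubulins were detected most fully, with 7 of 8 TUBA genes and 7 of 7 TUBB genes tested. TUBA1D, an alpha-tubulin gene, gave the largest rise of all 67 genes. It had 0.49 and 0.55 for high-fertile against 2.16 and 1.93 for low-fertile pools, a 2.87-fold difference (1.52, SE 0.16, limma adjusted p = 0.0034), on its single probe at chr2:111621798-111621856. TUBAL3, an alpha-tubulin-like gene, had -0.52 and -0.59 against 0.08 and 0.08 (0.64, SE 0.14, adjusted p = 0.026), a call lost without any 1 of the 4 pools. TUBB4A, a beta-tubulin, had -0.53 and -0.51 against 0.10 and 0.51 (0.83, SE 0.19, adjusted p = 0.028). For TUBB4A 1 spot lay on a bright patch of an array, and without patches the difference was 0.62 and not called. With normexp it was 0.25 and with the 3′-most probe 0.41, neither called. Its call was also lost without low-fertile pool 2 (0.62, limma adjusted p = 0.073) and without either high-fertile pool (0.82 and 0.84).

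TUBB4B, a beta-tubulin common in ciliated cells, had 3.90 and 3.91 for high-fertile against 3.29 and 3.46 for low-fertile pools (difference -0.53, SE 0.15, limma adjusted p = 0.049). The call did not hold without any 1 of the 4 pools or with the pool number as a block (adjusted p = 0.078). With the median over its 4 tested probes the TUBB4B difference was -0.0060 (limma adjusted p = 0.98). TUBB had 1.98, 2.15, 4.19 and 2.19 on its brightest probe, and the high value in low-fertile pool 1 came with a spot on a bright patch. Without patches the difference fell from 1.13 to 0.13, and neither was called. TUBA1A, TUBA1B, TUBA1C, TUBA3E, TUBA4A, TUBB1, TUBB2B, TUBB3 and TUBB6 were not called on their brightest probes, at -0.44 to 0.55. The brightest probe named TUBA1A lies at chr5:33739889-33739944, among the TUBA1B probes and not beside the other TUBA1A probes.

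Tubulin genes are near copies of each other in their coding parts and differ mainly near the 3′ end. Which probes lie in coding sequence was not looked up here, and probes are placed by transcript base alone. Probes of a beta-tubulin pair upstream of the 3′ end are set side by side, with the longest run that both share in capitals. TUBB lies at chr23:28221272-28221331, with TUBB4B on an unplaced contig.
TUBB base 1169: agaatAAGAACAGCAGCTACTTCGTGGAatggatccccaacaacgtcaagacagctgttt
TUBB4B base 1090: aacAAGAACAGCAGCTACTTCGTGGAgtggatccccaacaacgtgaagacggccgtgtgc
The pair shares a run of 23 bases and matches at 52 of 58 aligned bases. Whether such a probe reads more than 1 tubulin gene was not tested.

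Probes nearest the 3′ end follow. Stretches of 30 bases are shown, with the polyadenylation signal hexamer in capitals where it occurs. The letters AATAAA stand in 8.35% of all array probes and ATTAAA in 3.33%, read on the probe strand.
TUBA1A base 1844: ccgatgggtttgAATAAAgtattccctgtc
TUBA1B base 1654: cgctttcaactatgatcatgtattgctttt
TUBB base 1619: taataggcgctcAATAAAtatttgttgttt
TUBB4B base 1511: acagccaccaccATTAAAgcgttttcatag
These 4 probes were picked because they fell in the low-fertile pools. The 3′-most probes of the other alpha- and beta-tubulin genes with 2 or more tested probes were not called, with differences of -0.54 for TUBA1C, -0.22 for TUBB2B, 0.24 for TUBA4A, 0.41 for TUBB4A and 0.43 for TUBA3E. TUBA1A had 1.29 and 1.38 for high-fertile against 0.07 and -0.02 for low-fertile pools (difference -1.31, SE 0.14, limma adjusted p = 0.0039). TUBA1B had 0.92 and 1.07 against -1.29 and -1.28, where neither low-fertile array was well above background, so it was at least 4.85-fold higher in the high-fertile pools (difference -2.28, SE 0.15, adjusted p = 0.0022). In each of the 4 genes the groups did not overlap.
TUBB had 0.74 and 0.75 against -0.40 and -0.34 (difference -1.12, SE 0.14, limma adjusted p = 0.0052). TUBB4B had 1.44 and 1.5 against 0.72 and 0.74 (difference -0.74, SE 0.14, adjusted p = 0.016). The 3′ probes of TUBA1A and TUBB were not well above background in low-fertile pool 2. Upstream probes varied. TUBA1A at base 1017 (-0.43), TUBB at base 749 (0.09) and TUBB4B at bases 680 (-0.17) and 1090 (0.16) were not called. The called TUBB4B probe at base 1477 (-0.53) overlaps the one at base 1511, so their falls are not separate readings. TUBA1B was also called lower at base 1550 (-1.30, limma adjusted p = 0.0058), where low-fertile pool 2 was again not well above background, and was not called at bases 560 (1.04), 841 (-0.53) and 890 (-0.44).

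The difference between probes of 1 transcript was tested directly. For each of 2617 transcripts with tested probes 60 or more bases apart, the 3′-most signal minus the 5′-most signal was taken on each array and compared between groups in limma, a contrast added after the tubulin probes had been seen. The 3′ probe was lower relative to the 5′ probe in 12.7% of all these transcripts and higher in 5.27%, with a median of -0.14. Of the 18 transcripts of the axoneme, tubulin and motor genes, 5 were called lower at the 3′ end and 1 higher. The 3′ probes of TUBA1A, TUBA1B, TUBB and DYNC1LI2 were tested only through their high-fertile signal, and so was the 5′ probe of KIF3C. The filter thus favoured these directions. On probes detected on all 4 arrays 1 of 8 member transcripts was called lower and none higher, beside 18.2% and 7.16% of all such transcripts. The median over these 8 was 0.37, against -0.18 over the 18. For TUBA1A the 3′ signal over the 5′ signal was -1.42 and -1.25 for high-fertile against -2.12 and -2.30 for low-fertile pools (-0.88, SE 0.22, limma adjusted p = 0.049). For TUBB it was 0.12 and -0.01 against -1.14 and -1.16 (-1.21, SE 0.21, adjusted p = 0.020). For TUBA1C it was 2.11 and 1.85 against 0.84 and 0.89 (-1.11, SE 0.22, adjusted p = 0.027).

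TUBA1B was also among the 5 (limma adjusted p = 0.021). Its fitted value of -3.32 is no exact size, since the 3′ probe was not well above background on either low-fertile array and the 5′ signal was 3.04 in low-fertile pool 2 against 1.00 to 1.23 in the other pools. DYNC1LI2 was the fifth, with 1.06 and 0.88 against -0.39 and -0.48 (-1.40, SE 0.22, adjusted p = 0.016). KIF3C ran the other way (1.33, SE 0.21, adjusted p = 0.016). TUBB4B (-0.57, adjusted p = 0.12), TUBB4A (-0.42), TUBB2B (-0.14), TUBA4A (0.37), TUBA3E (0.49) and DNAI2 (0.47) did not pass. With high-fertile pool 1 or 2 left out none of the 18 was called in either direction, where 1.15% and 0.153% of all 2617 transcripts were called lower and 0.267% and 0.191% higher, though 5 were lower and 1 higher at an unadjusted p under 0.05 in each case. With low-fertile pool 1 left out 3 of the 18 were called lower and 1 higher, beside 11.0% and 4.66% of all transcripts. With low-fertile pool 2 left out 2 were called lower and 1 higher, beside 7.64% and 2.75%. The range of positions differed between genes, and RNA length and quality per pool were not used here, so their part in these differences was not tested.

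**Figure D4:**
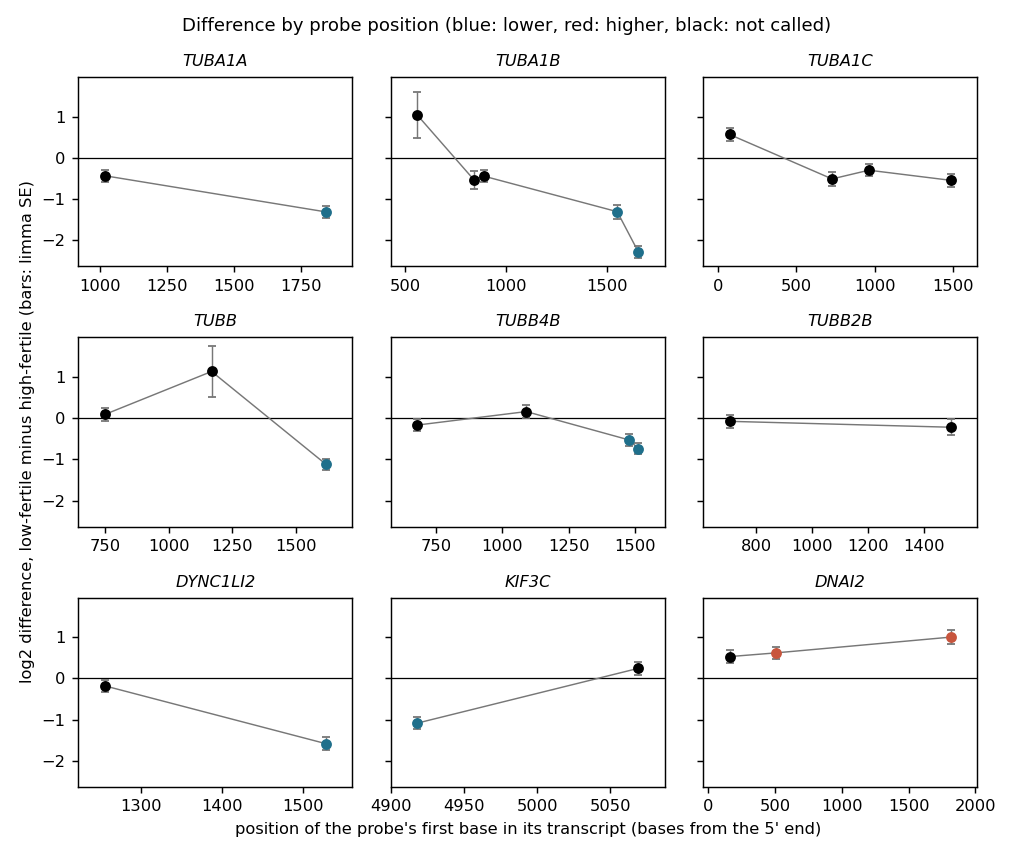
Log2 difference of each tested probe against the position of its first base in the transcript, counted from the 5′ end, for 1 transcript record of each of 9 genes, with limma standard errors as bars. Blue points were called lower, red points higher and black points were not called. The last probes of TUBA1A, TUBA1B, TUBB, TUBB4B and DYNC1LI2 are blue, whereas those of KIF3C, TUBA1C and TUBB2B are black and that of DNAI2, at base 1814, is red.

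TUBB2B held a probe at base 1211 of a separate cDNA record, at chr23:51451785-51451844, that was at least 2.54-fold higher in the high-fertile pools (difference -1.35, SE 0.16, limma adjusted p = 0.0043). The TUBB2B probes at chr23:51487192-51487251 and chr23:51487983-51488042 differed by -0.08 and -0.22 and were not called. In the gamma-tubulin ring complex, which seeds microtubules, TUBGCP6 rose from 0.11 and 0.19 to 0.89 and 0.83 (0.71, SE 0.14, adjusted p = 0.019). A second TUBGCP6 probe that starts 10 bases away differed by 0.27 without passing, the median of both (0.49) was not called, and the call was lost without either high-fertile pool (0.67 and 0.75) and without low-fertile pool 1 (0.68). TUBG2, TUBGCP2 and TUBGCP3 differed by 0.09 to 0.24 and were not called, and TUBG1, TUBGCP4 and TUBGCP5 had no tested probe.

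Partners of these families were read from 8 further lists, set against the same 16.6% lower and 9.53% higher of all genes. For genes well above background on both high-fertile arrays but not on both low-fertile arrays, those shares were 30.3% and 1.36%. Calls in these lists were not checked with a pool left out or under other scalings. Of 14 tested dynactin subunits and dynein regulators, 5 fell and none rose. Among the 8 well above background on all 4 arrays 3 fell, beside 9.32% of all such genes. The other 2 falls were among 6 genes tested only through their high-fertile signal. Dynactin subunits DCTN3 (-0.67, limma adjusted p = 0.024) and DCTN5 (-0.86, adjusted p = 0.013) fell, as did NDE1 (-0.88, adjusted p = 0.012) and NDEL1 (-0.81, adjusted p = 0.035), which bind dynein, and the cargo adaptor BICD2 (-1.43, adjusted p = 0.0042), which neither low-fertile array put well above background, so that it was at least 2.7-fold higher in the high-fertile pools. DCTN5 was below that mark on the array of low-fertile pool 2. The other 9 were not called.

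Of 21 tested microtubule-binding genes 5 fell and 3 rose. Among the 12 well above background on all 4 arrays 1 fell and 3 rose, beside 9.32% and 13.2% of all such genes. The other 4 falls were among 9 genes tested only through their high-fertile signal, where 30.3% of all such genes fell. STMN1, which binds free tubulin dimers, had 2.93 and 2.88 for high-fertile against 1.09 and 1.20 for low-fertile pools (-1.76, limma adjusted p = 0.0024). MAP7 (-1.51), CLIP1 (-1.25), KATNAL1 (-1.04) and CKAP5 (-0.72) also fell, each of the 4 being well above background on all arrays but that of low-fertile pool 2. MAP1S (0.79, limma adjusted p = 0.044) and TPX2 (0.60, adjusted p = 0.036) were among those that rose. Of 16 genes of tubulin folding and modification, the prefoldin subunit PFDN5 (-0.56, limma adjusted p = 0.049) and the polyglutamylase TTLL6 (-1.38, adjusted p = 0.0043) fell and PFDN1 (0.63, adjusted p = 0.039) rose. Of 12 further transport and transition zone genes, HSPB11 and TMEM67 fell and B9D2 (0.99) rose. HSPB11 and TMEM67 were not well above background on either low-fertile array, and were at least 4.47-fold and at least 4.22-fold higher in the high-fertile pools (limma differences -2.17 and -2.08).

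Of 11 genes of the docking complex, nexin links and central apparatus, AK7 (-0.69, not well above background in low-fertile pool 2) fell and CCDC151 (0.60), which docks outer arms, rose. Of 5 kinesin light chains and minus-end kinesins, CENPE, dim on both low-fertile arrays, fell (at least 1.96-fold higher in the high-fertile pools). KIFC2 (0.89) and KLC4 (0.56, limma adjusted p = 0.048, not well above background in low-fertile pool 2) rose. None of the 4 tested dynein assembly factors was called, with DNAAF1 at 0.54 (limma adjusted p = 0.050). Of the factors that switch on motile cilium genes, FOXJ1 (0.20) and RFX2 (0.56) were tested and not called.

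The label of sperm was checked on markers. Of 22 sperm markers on the array 9 were tested, among them ODF1, ACR, TNP1 and PRM1, and PRM1 was called higher (0.67, limma adjusted p = 0.023). AKAP4, AKAP3, SMCP, PRM2 and LDHC had no tested probe. The summed signal over the 22 sperm markers, in multiples of the 75th percentile, was 31.1 and 26.7 for high-fertile against 27.2 and 28.3 for low-fertile pools. No earlier germ cell marker of 8 was tested. Of 12 leukocyte markers 10 were tested and PTPRC was called higher, on a probe with the GT run. Their sum was 592 and 560 for high-fertile against 780 and 862 for low-fertile pools. Without PTPRC it was still higher in the low-fertile pools, at 402 and 368 against 469 and 513. LYZ, the brightest of the 12, made up most of the rest and was not called (0.38, limma adjusted p = 0.12). Without PTPRC and LYZ the sum was 31.6 and 33.8 against 30.9 and 34.8. Of 9 epithelial markers 6 were tested and CLDN7 was higher, and of 7 red cell markers 3 were tested and HBB was higher. The epithelial sum was 35.6 and 32.2 against 36.1 and 40.0, and the red cell sum 8.83 and 13.1 against 11.1 and 12.9. EPCAM, CDH1 and CD3E had no tested probe. The part of these cells in the differences above was not tested.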

How the data were processed

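RNA of 2 high-fertile and 2 low-fertile sperm pools was hybridized to 4 arrays of 1 slide. The authors extracted linear intensity values with Agilent Feature Extraction 11.5.1.1, with the background subtracted within each array, and shifted the log2 values to the 75th percentile in the deposited value table. The precision is limited by the number of arrays.

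From the processed intensities, outlier spots were left out, log2 spots of a probe averaged over 61657 spots, and the 75th percentile subtracted (Python 3.11.15, pandas 2.3.3, numpy 2.4.6). The fit over probes that passed in a whole group used limma 3.58.1 (R 4.3.3, prior of 3.52 degrees of freedom) and was tested on simulated data. A probe dim on both arrays of a group has only a bound, which rests on this background subtraction and leaves out the SE. Where the dim probe's own signal exceeded the lowest one well above background on both arrays, the bound is the observed fold. Of the 280 member probes, 229 were matched by accession to current RefSeq names (ARS-UCD2.0), and 1 symbol differed. Coordinates and probe sequences are those of the array files (Btau_3.1).

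Replicate numbers do not pair the pools: same-numbered arrays had deviations that correlated at r = 0.0055. The methods' t-test was an alternative, as were other scalings, filters, background correction, an intensity trend, a block and each pool left out. Genes named were, per family, those with the largest called fall and rise, or the largest difference where none was called, and over all members up to 8 called falls and up to 8 called rises detected on all 4 arrays, which gave 3 falls. KIF23, KIF26B, KIF15, KIF3C, TUBB, TUBA1A, TUBA1B, TUBA1C, TUBB2B, IFT80 and DNAH6 were named after their values were seen. Members and lists were chosen with earlier results of these data known. The contrast between probes of a transcript, the choice of the 3′-most probe and the removal of repeat-bearing probes were added after seeing the data. A few items are not reported here.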

Additional observations from a re-analysis of the deposited data

How the results depend on the processing

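Set against the reported 10 falls and 10 rises, the counts were 19 and 3 with spike-in scaling (31.4% and 2.92% of all genes), 6 and 6 with a mean signal above 0 (1663 and 1737 of 10406 genes), and 0 and 0 with no filter (10 and 15 at an unadjusted p under 0.05 in limma) or with the methods' t-test (10 and 13 unadjusted). No gene of all 32429 passed in either direction with no filter, and none of all 16682 with that t-test. On probes detected on all 4 arrays 4 genes were lower and 12 higher of 42 (12.3% and 21.6% of all genes). Leaving out a pool gave 5 to 9 lower and 1 to 7 higher (1520 to 2668 and 488 to 1118 of all 16685 genes). Quantile normalization, the detected percentile, normexp, the median probe, removal of patches, the intensity trend, the deposited table and the 3′-most probe kept both counts within 1.5 times, though single calls were lost and normexp shrank several differences. The replicate block gave 8 and 8, and TUBB4B (adjusted p = 0.078), DNAI2 (0.053), DYNC1LI1 (0.070) and KIF15 (0.061) lost the call in limma. DNAL4 turned to -0.31 with spike-in scaling, and lay between -0.14 and 0.26 with a pool left out (-0.08 when high-fertile pool 2 was dropped, -0.14 for low-fertile pool 2). RSPH6A turned to -0.011 with spike-in scaling. Of the 5 transcripts lower and 1 higher at the 3′ probe, 1 and 0 of 8 were called on probes detected on all 4 arrays (18.2% and 7.16% of all transcripts), and 0 to 3 and 0 to 1 without a pool. The causes were not tested. Signal over background limited 50 genes, with no tested probe.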
